A study of Mus musculus with 2 samples.

Results

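Matrix metalloproteinases are zinc-dependent proteases that cut the proteins of the extracellular matrix. Several of them are encoded side by side in a single gene cluster on mouse chromosome 9, and the 10 genes of that cluster are described here out of 21878 genes listed in the deposited tables. They were taken by symbol: the collagenase genes Mmp13, Mmp8, Mmp1a and Mmp1b, the stromelysin genes Mmp3 and Mmp10, the macrophage elastase gene Mmp12, the matrilysin gene Mmp7, the enamelysin gene Mmp20, and Mmp27. All 10 had a row in both tables. The cells were primary mouse chondrocytes of strain C57BL/6 treated with lentivirus and grown in DMEM with 10% fetal bovine serum. One library came from cells that carried a control hairpin (treatment shNC, genotype control), and the other from cells with a hairpin against Gpx4 (treatment shGpx4, genotype GPX4 knockdown). Gpx4 encodes glutathione peroxidase 4, an enzyme that reduces lipid hydroperoxides, and the series asked by RNA sequencing how GPX4 acts in these cells. There were 2 libraries, 1 library per group, so no difference below was tested, and each value describes these libraries alone.

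Enzymes of this family are secreted as inactive precursors, become active when their propeptide is removed by other proteases, and are held in check by the tissue inhibitors of metalloproteinases. Collagenases cut the triple helix of fibrillar collagen, while stromelysins cut proteoglycans and fibronectin and can activate procollagenases. In cartilage MMP13 is the main collagenase that acts on type II collagen, and MMP3 and MMP13 are classical products of chondrocytes and synovial fibroblasts exposed to inflammatory cytokines. Many promoters of the family carry a binding site for the transcription factor AP-1 close to a TATA box.

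The promoter letters of the 10 genes are shown first, since they are what most of these genes share beside their position. The stretches run from 100 bases before the annotated start of the gene to 20 bases after it (RefSeq, build GRCm38.p6, 120 bases each). Capitals mark the AP-1 letters TGAGTCA on either strand (TGACTCA on the other) and the TATA letters TATAAA on the strand of the gene. The following 7 genes hold both.
Mmp3 (chr9:7445722-7445841, plus strand): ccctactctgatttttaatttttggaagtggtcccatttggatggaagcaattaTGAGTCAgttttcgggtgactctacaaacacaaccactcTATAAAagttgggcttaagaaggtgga
Mmp13 (chr9:7272414-7272533, plus strand): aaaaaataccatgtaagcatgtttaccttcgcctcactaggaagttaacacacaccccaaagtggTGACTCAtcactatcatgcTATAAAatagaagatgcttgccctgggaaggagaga
Mmp12 (chr9:7347274-7347393, plus strand): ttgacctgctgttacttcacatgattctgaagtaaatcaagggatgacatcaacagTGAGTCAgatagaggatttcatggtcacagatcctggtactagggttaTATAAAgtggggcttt
Mmp10 (chr9:7502242-7502361, plus strand): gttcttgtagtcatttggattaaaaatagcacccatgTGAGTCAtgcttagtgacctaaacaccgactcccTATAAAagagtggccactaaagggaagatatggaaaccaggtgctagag
Mmp7 (chr9:7691990-7692109, plus strand): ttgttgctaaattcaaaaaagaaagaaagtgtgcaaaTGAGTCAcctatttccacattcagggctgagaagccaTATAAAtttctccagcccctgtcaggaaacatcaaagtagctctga
Mmp1a (chr9:7464041-7464160, plus strand): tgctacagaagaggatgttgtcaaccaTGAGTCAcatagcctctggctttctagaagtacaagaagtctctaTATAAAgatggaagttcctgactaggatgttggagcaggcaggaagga
Mmp1b (chr9:7388007-7388126, minus strand): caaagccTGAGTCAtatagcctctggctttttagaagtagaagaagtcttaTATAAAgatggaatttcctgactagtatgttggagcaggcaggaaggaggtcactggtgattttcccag

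The remaining 3 genes lack the AP-1 letters, and Mmp20 alone of them holds the TATA letters on its own strand.
Mmp8 (chr9:7558329-7558448, plus strand): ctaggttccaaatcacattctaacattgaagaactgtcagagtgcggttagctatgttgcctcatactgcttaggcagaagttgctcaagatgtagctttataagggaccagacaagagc
Mmp20 (chr9:7628131-7628250, plus strand): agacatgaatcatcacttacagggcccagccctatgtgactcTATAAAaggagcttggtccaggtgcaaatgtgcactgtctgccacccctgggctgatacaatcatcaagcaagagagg
Mmp27 (chr9:7571296-7571415, plus strand): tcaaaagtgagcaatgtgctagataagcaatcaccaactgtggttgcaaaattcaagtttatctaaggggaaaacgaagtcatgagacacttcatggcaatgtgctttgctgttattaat

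Over the whole promoter window of 300 bases (250 before the start and 50 after it), the AP-1 letters stood in 7 of the 12 windows annotated for these genes. Among all 32817 windows of the same length in the mouse annotation, 5.20% held them. In each of the 7 genes the TATA letters followed on the strand of the gene, from 19 bases downstream in Mmp13 to 48 in Mmp12, counted from first base to first base. An AP-1 match with TATA letters within the next 60 bases was found in 44 of the 32817 windows (0.134%), and 7 of those 44 belong to this cluster. This pair of matches was chosen after these promoters had been seen, so the 2 counts are a description and not a test. Mmp12 has 2 annotated starts, and the pair lies at the downstream one. The letters AGGAAG, a core of ETS factor sites, stood in 8 of the 12 windows (35.4% of all windows, both strands). Mmp13 held them at positions -109 and -62, counted from the start. The letters ACCACA, a core of RUNX factor sites, stood in 4 of the 12 windows (16.8% of all windows), among them that of Mmp13 at position -118. No matches of different motifs overlapped in the windows plotted. A match is a string of letters and not a known binding site.

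**Figure D1:**
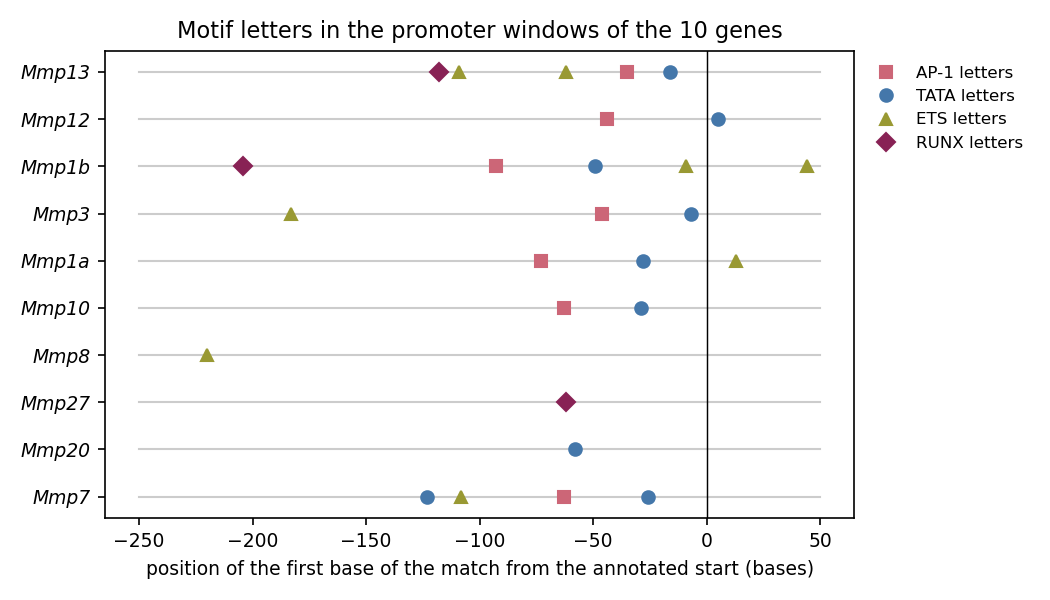
Position of motif letters in the promoter window of each of the 10 genes, in bases from the annotated start (x axis), with genes in order along the chromosome (y axis). Squares are AP-1 letters, circles TATA letters on the strand of the gene, triangles ETS letters and diamonds RUNX letters, the last 2 kinds on either strand. In 7 genes a square is followed by a circle within 60 bases. For Mmp12 and Mmp7, which have 2 windows, the window with the AP-1 letters is drawn.

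The cluster spans 427 kb of chromosome 9, from 7272514 to 7699585 (GRCm38). In order it holds Mmp13, Mmp12, Mmp1b, Mmp3, Mmp1a, Mmp10, Mmp8, Mmp27, Mmp20 and Mmp7. Of these, 9 are read from the plus strand and Mmp1b from the minus strand. The shortest gap, 2.91 kb, lies between Mmp8 and Mmp27, and the longest, 61.1 kb, between Mmp13 and Mmp12. Mmp3 lies from 7445822 to 7455975, Mmp13 from 7272514 to 7283333 and Mmp12 from 7344397 to 7360461. The longest coding transcript of each of these 3 genes has 10 exons in GENCODE vM21, and that of Mmp7 has 6, since matrilysin lacks the hemopexin domain of its relatives.

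Levels are FPKM, reads scaled to the length of the gene and the library total. The shNC library held 19729142 reads and the shGpx4 library 21313211, as recovered from the FPKM values. Genes with a mean of at least 1 FPKM over both libraries are called measured, which 10997 genes were. The ratio used to call a gene is log2 of (FPKM + 1), shGpx4 divided by shNC, a scale that understates the change of low genes. The plain FPKM ratio is given beside it, with an exact Clopper-Pearson 95% interval from the reads, which covers counting error only and not the spread between cultures. Where a pair of values follows a gene, the first is that of shNC and the second that of shGpx4, and a single value after them is the log2 ratio. Gpx4 itself was at 161 FPKM in shNC against 96.2 FPKM in shGpx4, so 59.9% of its level remained in the knockdown library. Of 14 chondrocyte markers 8 were measured, as were 10997 of all 21878 listed genes. Of these 8 markers 5 had a log2 ratio above 0, against 41.3% of all measured genes. Col2a1 (8.96 and 58.4 FPKM) and Lect1 (124 and 270 FPKM) were at least 2-fold higher in shGpx4, and none was at least 1.5-fold lower. Among all measured genes 1.02% were at least 2-fold higher and 1.96% at least 1.5-fold lower. Prg4 was at 135 and 203 FPKM, Comp at 1666 and 1421 FPKM and Sox9 at 21.8 and 18.2 FPKM. Neither library had a read of Matn1 or Epyc. Acan, the gene of the main cartilage proteoglycan, and Matn3 each had 0 reads and 1 read, Col9a1 had 2 and 1, and Col11a2 was at 0.374 and 0.231 FPKM. The label chondrocyte thus has partial marker support. All 8 fibroblast markers considered below were measured. The summed level of the 14 chondrocyte markers was 1969 FPKM in shNC against 1984 FPKM in shGpx4, most of it Comp. Their part in the values below was not tested. In RNA from a whole culture, fewer cells that express a gene and less RNA per cell cannot be told apart.

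Of the 10 cluster genes, 3 were measured, namely Mmp3, Mmp13 and Mmp12. All 3 had at least 2-fold more FPKM under shGpx4 than under shNC, and 0 of the 3 at least 2-fold less. Among all measured genes 1.02% were at least 2-fold higher and 0.527% at least 2-fold lower. The median log2 ratio of the 3 measured cluster genes was 1.33, against -0.04 for all measured genes. The other 7 cluster genes were under the filter on low values: Mmp10, Mmp8 and Mmp27 had between 11 and 31 reads per library, Mmp1b had 0 and 3 reads, and Mmp1a, Mmp20 and Mmp7 were listed at 0 in both libraries. A gene that was low in shNC could pass the filter through its level in shGpx4, as Mmp12 did.

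**Figure D2:**
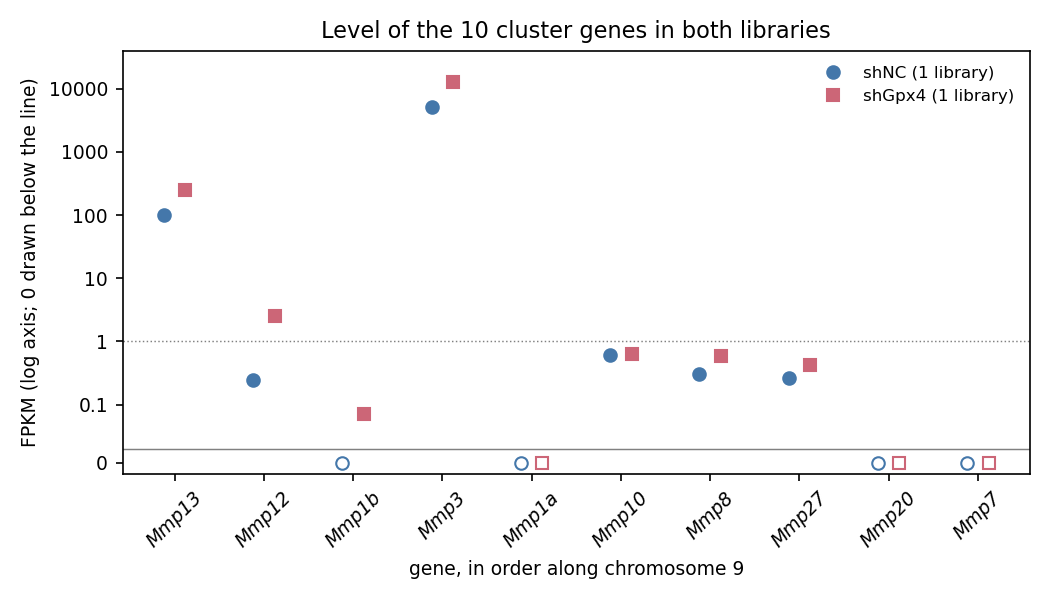
FPKM of the 10 cluster genes (y axis, log scale, values of 0 drawn as open symbols under the solid line), in order along chromosome 9, with 1 library per group (circles shNC, squares shGpx4). Mmp3 stands at 5144 and 12910 FPKM and Mmp13 at 102 and 252 FPKM, Mmp12 passes the dotted line at 1 FPKM in shGpx4 alone, and the other 7 genes lie below it.

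Mmp3 encodes stromelysin 1, which cuts proteoglycans, fibronectin and basement membrane proteins and can activate other proMMPs. Its level was 5144 FPKM in shNC against 12910 FPKM in shGpx4. That is an FPKM ratio of 2.51 (counting interval 2.50 to 2.52), from 182777 and 495564 reads, and a log2 ratio of 1.33 on the (FPKM + 1) scale. The knockdown library was the higher one, and 40 of all measured genes had a higher log2 ratio.

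Mmp3 was among the most abundant transcripts in both libraries. In shNC it held rank 3 of all genes by FPKM, between osteopontin (Spp1, 8720 FPKM) and the acute-phase gene Saa3 (4459 FPKM). In shGpx4 it held rank 2, below the ferritin heavy chain gene Fth1 (14920 FPKM) and above Spp1 (8897 FPKM). Its difference of 7766 FPKM between the libraries was the largest gain of all 21878 genes, and the next largest was 2944 FPKM. Mmp3 reads made up 0.926% of the shNC library (exact interval 0.922% to 0.931%) and 2.33% of the shGpx4 library (2.32% to 2.33%). Leaving Mmp3 out of both totals raised the log2 FPKM ratio of the other genes with reads in both libraries by 0.02, and their ratio on the (FPKM + 1) scale by less where levels were low.

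Mmp13 encodes collagenase 3, which cuts type II collagen. It was at 102 FPKM in shNC against 252 FPKM in shGpx4, from 5385 and 14362 reads. The FPKM ratio was 2.47 (counting interval 2.39 to 2.55), and the log2 ratio on the (FPKM + 1) scale was 1.30. Mmp13 was thus higher in the knockdown library as well, and its rank by FPKM went from 543 to 190.

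The counting interval of the Mmp3 ratio lay inside that of the Mmp13 ratio, while the Mmp13 ratio itself lay just below the Mmp3 interval. Their log2 ratios on the (FPKM + 1) scale differed by 0.03. Their levels were far apart: the Mmp3 level per length was 50.4 times that of Mmp13 in shNC and 51.3 times in shGpx4. Along the chromosome, Mmp12 and Mmp1b lie between them.

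Mmp12 encodes macrophage elastase, named for the cells in which it was found, which cuts elastin. It was at 0.242 FPKM in shNC against 2.55 FPKM in shGpx4, from 18 and 205 reads. The FPKM ratio was 10.5 (counting interval 6.51 to 18.1), which lies above the intervals of Mmp3 and Mmp13. On the (FPKM + 1) scale the log2 ratio was 1.51, and with 0.1 added in place of 1 it was 2.95, so the size of this difference depends on how low values are treated.

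Macrophage markers did not move in 1 direction beside Mmp12. Of 11 markers 3 were measured, namely Lyz2 (7.67 and 1.86 FPKM), Cd14 (9.19 and 17.1 FPKM) and Cd68 (3.90 and 3.80 FPKM). The pan-leukocyte gene Ptprc and the Fc receptor gene Fcgr1 were at 0 in both libraries, and the macrophage gene Adgre1 was at 0.171 and 0.013 FPKM. The summed level of the list was 21.7 FPKM in shNC against 23.2 FPKM in shGpx4.

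**Figure D3:**
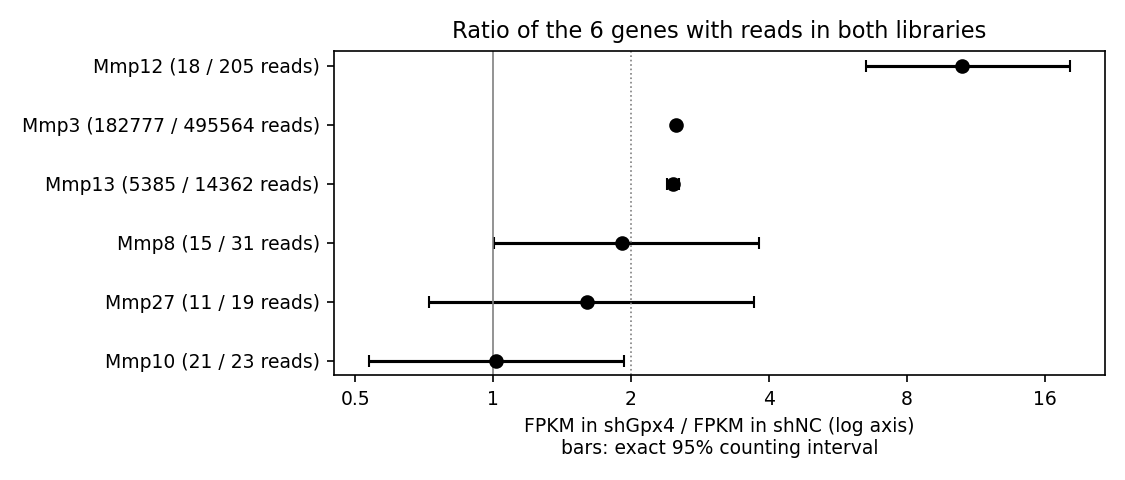
FPKM in shGpx4 over FPKM in shNC (x axis, log scale) for the 6 cluster genes with reads in both libraries, with the reads of shNC and shGpx4 after each name. Points are the ratio and bars the exact 95% counting interval, with no replicate spread. The bars of Mmp12, Mmp3 and Mmp13 lie above the dotted line at 2, that of Mmp8 starts at 1.00, and those of Mmp27 and Mmp10 hold 1.

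Mmp8 encodes collagenase 2, the collagenase of neutrophil granules, which chondrocytes can also make. It was at 0.310 FPKM in shNC against 0.593 FPKM in shGpx4, from 15 and 31 reads. The FPKM ratio of 1.91 had a counting interval of 1.00 to 3.81, whose lower end is just above 1. In all, 4 of the 7 cluster genes with a read in either library (Mmp3, Mmp13, Mmp12 and Mmp8) had an interval above 1, against 15.3% of all 15153 such genes. Over the measured genes the interval lay above 1 for 18.1% and below 1 for 27.3%, the latter for 0 of the 3 measured members. Of 8 neutrophil markers, 5 were at 0 in both libraries, S100a9, Ly6g, Mpo, Ltf and Ngp. Among all 21878 listed genes 6725 were at 0 in both. Camp was the only measured neutrophil marker, at 7.02 FPKM in shNC against 6.66 FPKM in shGpx4. It made up most of the summed level of the list, which was 7.34 FPKM in shNC against 6.71 FPKM in shGpx4.

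Mmp10 encodes stromelysin 2, the closest relative of MMP3. It was at 0.614 FPKM in shNC against 0.622 FPKM in shGpx4, from 21 and 23 reads, with an FPKM ratio of 1.01 (counting interval 0.536 to 1.93). The intervals of Mmp10 and Mmp3 do not overlap, so these stromelysin genes differed in their ratios by more than counting error, if their reads were assigned correctly. Mmp1a lies between them on the chromosome. The longest coding transcripts of Mmp3 and Mmp10 share an exact run of 104 bases, and reads within such runs can be assigned to either gene. The Mmp10 level is therefore uncertain beside so abundant a relative.

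Mmp27, whose substrates are little known, was at 0.262 FPKM in shNC against 0.418 FPKM in shGpx4, from 11 and 19 reads. Its FPKM ratio of 1.60 had a counting interval of 0.723 to 3.72 that holds 1, so no difference was detectable at this depth.

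Mmp1a and Mmp1b are the rodent counterparts of human MMP1, the interstitial collagenase. Mmp1a had no read in either library, and 3 reads would have given 0.075 FPKM in shNC against 0.070 FPKM in shGpx4. Mmp1b had no read in shNC and 3 reads, or 0.070 FPKM, in shGpx4, which is no more than that limit. The pair shares an exact run of 134 bases, the longest among the 45 pairs of cluster genes, and apart from Mmp3 with Mmp10 no other pair shares a run of 50 bases.

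Mmp7, the matrilysin of glandular epithelium, had no read in either library, where 3 reads would have given 0.142 and 0.132 FPKM. Of 7 epithelial markers 5 were at 0 in both libraries, and the summed level was 0.034 FPKM in each. Mmp20, the enamelysin of ameloblasts, also had no read, with 3 reads worth 0.046 and 0.043 FPKM, and 5 of 6 ameloblast markers were at 0 in both libraries. Among all 21878 listed genes 6725 were at 0 in both. The AP-1 and TATA letters were thus present both in the promoter windows of the 3 cluster genes that were higher and in those of Mmp1a, Mmp1b, Mmp7 and Mmp10, which had at most 23 reads.

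Summed over the cluster, the 10 genes were at 5247 FPKM in shNC against 13166 FPKM in shGpx4, a ratio of 2.51. Mmp3 made up 98.0% of the sum in shNC and 98.1% in shGpx4. Without Mmp3 the sum was 103 and 256 FPKM, a ratio of 2.48. The cluster took 0.954% of all reads in shNC and 2.39% in shGpx4.

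**Figure D4:**
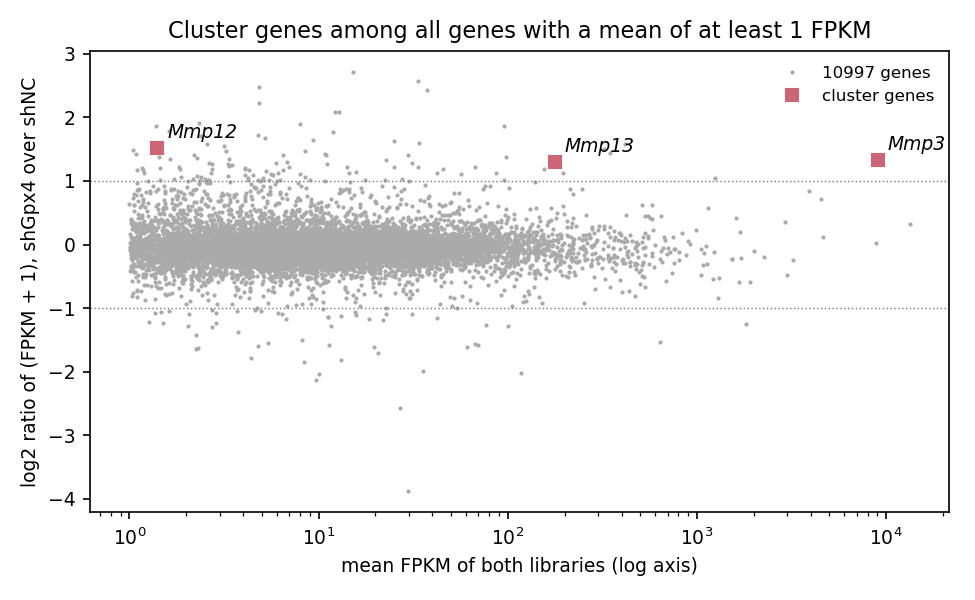
Log2 ratio of (FPKM + 1), shGpx4 over shNC (y axis), against the mean FPKM of both libraries (x axis, log scale) for 10997 measured genes, with the 3 measured cluster genes as squares. All 3 lie above the dotted line at 1, the 2-fold limit, Mmp12 near the low end of the levels and Mmp3 near the high end.

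Of 10 protein-coding genes within 1 Mb of the ends of the cluster 9 were measured, and 0 of the 9 were at least 1.5-fold higher or lower. Among all measured genes 2.99% were at least 1.5-fold higher and 1.96% at least 1.5-fold lower, so 0 of 9 is near these shares. The median log2 ratio of the 9 neighbours was -0.07, from -0.34 for Tmem123 to 0.36 for Birc3. Birc3, which encodes an inhibitor of apoptosis induced by NF-kB, was at 12.6 FPKM in shNC against 16.5 FPKM in shGpx4. Its relative Birc2 was at 12.8 and 12.1 FPKM, and Yap1, the Hippo pathway coactivator, at 52.0 and 48.5 FPKM. On the other side, Dcun1d5, the gene next to Mmp13, was at 27.8 and 29.2 FPKM, and the dynein gene Dync2h1 at 5.07 and 6.52 FPKM. Pdgfd, a platelet-derived growth factor gene, was at 4.87 and 6.27 FPKM. Trpc6 was listed at 0 in both libraries. Within the cluster itself the measured genes lie in its first part, and Mmp10, Mmp8 and Mmp27, downstream of Mmp3, had log2 ratios of 0.01, 0.28 and 0.17. All of these had a mean under 1 FPKM, where the added 1 draws ratios toward 0. Their plain log2 FPKM ratios were 0.02, 0.94 and 0.68, so the difference from the first part depends on the scale.

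**Figure D5:**
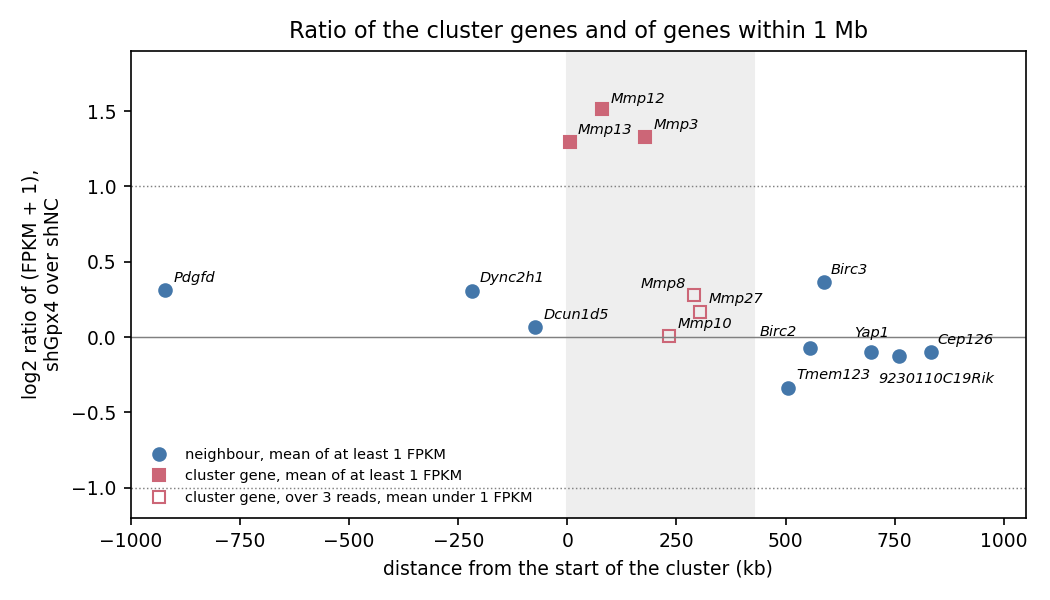
Log2 ratio of (FPKM + 1), shGpx4 over shNC (y axis), against the distance of each gene's middle from the start of the cluster in kb (x axis). The shaded span is the cluster, filled squares are its measured genes, open squares its genes with over 3 reads and a mean under 1 FPKM, and circles the measured neighbours. Mmp13, Mmp12 and Mmp3 lie above the dotted line at 1, and all 9 neighbours lie between -0.34 and 0.36. The added 1 draws the open squares toward 0.

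Of 13 metalloproteinase genes outside the cluster 7 were measured, none at least 1.5-fold higher and 1 at least 1.5-fold lower, which was the stromelysin 3 gene Mmp11 at 39.4 and 21.6 FPKM (log2 ratio -0.84). Their median log2 ratio was -0.04. The gelatinase gene Mmp9, under the filter on low values, was at 0.805 and 0.179 FPKM from 54 and 13 reads, a log2 FPKM ratio of -2.17 with a counting range of -3.16 to -1.27. The other gelatinase gene, Mmp2, was at 121 and 97.8 FPKM, and Mmp14, the membrane-bound activator of proMMP2 and proMMP13, at 90.9 and 96.3 FPKM. Among all measured genes 2.99% were at least 1.5-fold higher and 1.96% at least 1.5-fold lower.

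Genes that activate or restrain these enzymes went both ways. Of 20 such genes 14 were measured, 3 of them at least 1.5-fold higher (2.99% of all measured genes) and 1 at least 1.5-fold lower (1.96%). The proprotein convertase gene Pcsk5 was at 0.697 FPKM in shNC against 2.94 FPKM in shGpx4 (log2 ratio 1.22), and the urokinase receptor gene Plaur at 3.67 and 8.05 FPKM (0.96). Pcsk5 passed the filter on low values through its level in shGpx4. Plasminogen (Plg), whose active form plasmin cleaves proMMP3, was listed at 0 in both libraries. Among the inhibitors, Timp1 was at 810 and 1679 FPKM (1.05) and Timp3, which binds to the matrix, at 330 and 174 FPKM (-0.92). Timp2 was at 836 and 768 FPKM. Lrp1, the endocytic receptor that clears MMP13 from the medium, was at 189 and 252 FPKM (0.42), and the convertase gene Pcsk6 at 13.1 and 18.4 FPKM (0.46).

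Of 24 transcription factor genes known to act on promoters of the family 22 were measured. Of these 3 were at least 1.5-fold higher (2.99% of all measured genes), none at least 1.5-fold lower (1.96%) and 17 of 22 above 0 (41.3%). Their median log2 ratio was 0.15. The 3 were the epithelial ETS factor Elf3, at 1.11 and 3.45 FPKM (1.07), the ETS factor Etv4, at 1.02 and 2.33 FPKM (0.72), and the AP-1 subunit Junb, at 56.1 and 85.0 FPKM (0.59). The other AP-1 subunit genes had log2 ratios between 0.09 for Jun and 0.40 for Jund. Cebpb was at 147 and 192 FPKM (0.39) and Ets1 at 4.74 and 6.57 FPKM (0.40), while the Mmp13 regulator Runx2 was at 4.20 and 4.45 FPKM. Hypertrophic chondrocytes and osteoblasts are known sources of Mmp13. Of 11 markers of these cells 5 were measured, 3 were at least 1.5-fold lower (1.96% of all measured genes) and none at least 1.5-fold higher (2.99%). The 3 lower ones were Dmp1 at 12.6 and 3.81 FPKM, Phex at 2.83 and 1.43 FPKM and Ibsp at 2.10 and 1.01 FPKM. The hypertrophic chondrocyte genes Col10a1 (0.551 and 0.210 FPKM) and Ihh (0.033 and 0.092 FPKM) were not measured, so these counts say little about such cells. The summed level of the list was 8744 and 8908 FPKM, nearly all of it Spp1. The part of these markers in the Mmp13 value was not tested.

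Extracellular inducers and their receptors were mostly slightly above their shNC level. Of 28 genes 23 were measured, with a median log2 ratio of 0.16. Of these 3 were at least 1.5-fold higher (2.99% of all measured genes), none at least 1.5-fold lower (1.96%) and 18 of 23 above 0 (41.3%). Fgf2, a growth factor that induces Mmp13 in chondrocytes, was at 11.3 and 23.9 FPKM (1.02), and Lif, a cytokine of the IL-6 family, at 0.419 and 1.79 FPKM (0.97). The third was Il6 (0.311 and 2.01 FPKM), whose values do not fix its number of reads beyond a ratio of 1 to 7, so no interval is given. Lif and Il6 were under 1 FPKM in shNC and passed the filter through their level in shGpx4. The interleukin 1 genes Il1a and Il1b and the oncostatin M gene Osm were listed at 0 in both libraries, and Tnf was at 0.031 and 0.028 FPKM. The matching receptor genes were present, Il1r1 at 34.0 and 40.7 FPKM and Osmr at 92.7 and 122 FPKM.

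Among 17 substrates of these enzymes 14 were measured, 4 at least 1.5-fold higher (2.99% of all measured genes) and 1 at least 1.5-fold lower (1.96%). Col2a1, the fibrillar collagen that MMP13 cuts, was at 8.96 and 58.4 FPKM (log2 ratio 2.58). Igfbp5 was at 16.5 and 51.7 FPKM (1.59), tenascin C (Tnc) at 15.8 and 43.5 FPKM (1.41) and decorin (Dcn) at 2808 and 5042 FPKM (0.84). Igfbp3, an insulin-like growth factor binding protein, was at 3.93 and 0.576 FPKM (-1.65). Fibroblast markers, which synovial cells share, had 3 of 8 at least 1.5-fold higher (2.99% of all measured genes), Cd34, Pdpn and Thy1, and 1 at least 1.5-fold lower (1.96%), Dpt. Their summed level was 1395 and 1390 FPKM, and their part in the Mmp3 value was not tested.

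Some genes outside the cluster had log2 ratios close to those of its measured members, by distance in log2 ratio over these 2 libraries for genes whose mean reached 5 FPKM. Nearest to Mmp3 was Socs3, the feedback inhibitor of cytokine signalling, at 12.6 and 33.2 FPKM (1.33). Nearest to Mmp13 were Serpina6, at 3.52 and 10.1 FPKM (1.30), the protocadherin gene Pcdhga10 (1.28), which shares exons with its neighbours and is therefore uncertain, and Adamts5, the gene of an aggrecanase (17.9 and 44.8 FPKM, 1.28). Nearest to Mmp12 were Serpina3n, at 169 and 479 FPKM, Ube2c (1.47) and the metallothionein gene Mt2, at 208 and 629 FPKM (1.59). This nearness holds on the (FPKM + 1) scale: the plain FPKM ratio of Mmp12 was 10.5, against 2.84 for Serpina3n, 3.21 for Ube2c and 3.01 for Mt2. For Socs3 it was 2.64 and for Adamts5 2.50, beside 2.51 for Mmp3 and 2.47 for Mmp13. With 1 library per group such likeness is a nearness of ratios alone.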

How the data were processed

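mRNA libraries of 2 samples of primary mouse chondrocytes were sequenced, and groups were taken from the treatment in the labels, which do not say how animals or cultures were used. The kit keeps strand, per the labels' protocols. For each library the authors deposited 1 table, and the values were read as FPKM from the numbers themselves and from Cufflinks, which the submitters' processing notes list with Trimmomatic, HISAT2 and build GRCm38. Versions, strand setting and filters: not given in the sources used here, so overlapping and closely related genes may share reads.

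Library totals were recovered from the FPKM values: the inverse of the FPKM of a gene with 1 read is a whole multiple of the total, and the commonest common divisor was taken. The reads are the smallest whole numbers over a whole length that give both values, within a relative 5.0e-15. Where true counts share a divisor these reads are too few and the interval too wide, so shares of genes by interval may be too low. For Mmp3 the length found was 1801 bases, that of its transcript, and for Mmp13 it was 2675 against 2673. Genes with a mean of at least 1 FPKM were called measured, a pseudocount of 1 was used, and folds of 2 and 1.5 served as size rules. The totals limit precision as the counting intervals show, and they cover counting error alone, as PCR copies are not independent molecules. For genes at 0, the FPKM that 3 reads would give is printed.

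Named were all 10 members, Gpx4, the protein-coding genes within 1 Mb, the 3 genes nearest in ratio to each measured member, the genes next to Mmp3 in level, and up to 6 measured genes of each list with the largest absolute ratio (marker lists too), of which some are left out. Genes at or near 0, Timp2, Mmp9, Jun, Il1r1 and Osmr were named beyond this rule, after their values were seen. The members and lists were chosen with earlier results of these data known. The combination of AP-1 and TATA letters was chosen after the promoters had been seen. Alternatives were another pseudocount, 4 other scalings, and other filters. The computation was tested on simulated data. Sequences and locations are RefSeq's (GRCm38.p6), transcripts GENCODE vM21's. Values were computed in Python 3.11.15 (pandas 2.3.3, numpy 2.4.6, scipy 1.17.1) and drawn with matplotlib 3.10.9.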

Additional observations from a re-analysis of the deposited data

How the results depend on the processing

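Over 12 results and 102 alternative values, each of the 102 stayed on its side of the 2-fold limit or, for counts, within 1.5 times, and no called ratio changed sign. Of these alternatives, the ratio of recovered reads and the totals without Mmp3 were chosen after seeing the data. Some of the 102 values could not differ from the main ones. A change of filter left the log2 ratio of each single gene, measured or not, and of the summed FPKM as it was. The other pseudocount left that of the summed FPKM as it was. The log2 ratio of Mmp3 lay between 1.33 and 1.38 and that of Mmp13 between 1.29 and 1.34. The log2 ratio of Mmp12 lay between 1.51 and 3.36, the highest from reads with 0.5 added. That of Mmp8 lay between 0.28 and 0.91, that of Mmp27 between 0.17 and 0.65 and that of Mmp10 between 0.01 and 0.05. With a minimum mean of 5 FPKM Mmp12 was no longer counted, which left 2 measured members, both at least 2-fold higher. The median log2 ratio of the neighbours was 0.07 with that filter and between -0.08 and -0.03 under the other alternatives. That filter leaves out the neighbours 9230110C19Rik (-0.12) and Cep126 (-0.10), and the median is then the value of Dcun1d5. No paired analysis was possible because each group has 1 library and the labels carry no replicate numbers, and for the same reason no library could be left out. Depth limits the genes with few reads: for Mmp10 and Mmp27 the counting interval of the FPKM ratio holds 1.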

Other observations

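Ratios of genes outside the cluster are given here by the AP-1 letters of their promoter window, as a description. Of 10994 measured genes that are no members, 8867 (80.7%) had a promoter window in the RefSeq table. Of the 390 with AP-1 letters in a window, 5 were at least 2-fold higher (1.28%) and 1 at least 2-fold lower (0.256%). Their median log2 ratio was -0.04. Of the 8477 without AP-1 letters, 75 were at least 2-fold higher (0.885%) and 44 lower (0.519%), with a median of -0.04. The combination of AP-1 letters and TATA letters within 60 bases stood in windows of 37 genes beside the 7 of the cluster, and 8 of the 37 were measured. None of these 8 was at least 2-fold higher (1.02% of all measured genes), and 1 was at least 2-fold lower (0.527%). The latter was Ripply1, at 8.58 FPKM in shNC against 2.28 FPKM in shGpx4. Among the others, the actin-binding gene Cald1 was at 120 and 97.3 FPKM, Palld, which encodes another actin-associated protein, at 34.3 and 30.7 FPKM, and the matrix gene Ecm1 at 342 and 339 FPKM. The choice of these names followed a look at their values, and no test was made.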
